A study of Mus musculus with 10 samples.

Results

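The genes described here are 10 genes of calcium handling by the sarcoplasmic reticulum, chosen by symbol through their Ensembl identifiers in the GRCm38 annotation: *Ryr1*, *Cacna1s*, *Jph1*, *Atp2a1*, *Atp2a2*, *Sln*, *Pln*, *Casq1*, *Casq2* and *Pvalb*. All 10 were among the 49315 genes of the count table, and all 10 were among the 14714 genes with enough counts to be tested. RNA was sequenced from the gastrocnemius, a mixed calf muscle made mostly of fast fibres, of 10 male mice on the C57BL6J background. Of these, 5 carried floxed *Ahr* alleles without Cre (AHRfl) and 5 were muscle-specific knockouts of the aryl hydrocarbon receptor (AHRmKO). AHRmKO mice carry the same floxed alleles and the HSA-MCM transgene, in which the human ACTA1 promoter drives a tamoxifen-dependent MerCreMer recombinase in muscle fibres, so that other cells of the muscle keep an intact gene. The labels place the start of smoke exposure 4 weeks after tamoxifen, while the study's main text gives a shorter interval and describes AHRmKO mice and their littermates without Cre on the same schedule. The labels do not give the age of the mice. Both genotypes breathed cigarette smoke for 16 weeks, on 5 days per week with 2 exposures of 1 h each day, and the labels give 72 h from the last exposure to the removal of muscle, the upper end of a range in the study's text. Every comparison was therefore between smoke-exposed genotypes, and no air-exposed mouse was analysed here.

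In a muscle fibre, an action potential in the transverse tubule is sensed by the dihydropyridine receptor (Cacna1s), which opens the ryanodine receptor (Ryr1) of the adjoining sarcoplasmic reticulum, and junctophilin (Jph1) holds these membranes together. Calcium pumps of the SERCA family return calcium to the reticulum, where calsequestrins bind it, and parvalbumin binds calcium in the cytosol of fast fibres. Fast fibres use mainly Atp2a1 (SERCA1) and Casq1, whereas slow fibres and heart use Atp2a2 (SERCA2a) and Casq2, and the small membrane peptides sarcolipin (Sln) and phospholamban (Pln) restrain the pumps.

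Libraries held between 30393035 and 37954388 counts, and every level below is in CPM, that is, counts scaled to the TMM-normalised library total. The summed level of 5 general myofibre markers was 57780 to 69748 CPM in AHRfl mice and 62282 to 71638 CPM in AHRmKO mice, so the libraries carried the markers of their labelled tissue. The targeted gene *Ahr* was at 2.02 ± 0.681 CPM (SD, n = 5) in AHRfl mice and 1.58 ± 0.443 CPM in AHRmKO mice, the groups overlapped, and the log2 fold change of -0.35 did not pass the test (edgeR quasi-likelihood, adjusted p = 0.844). These counts cover the whole gene, not the floxed exon alone, and all cells of the muscle. Of all genes tested, 1 passed an adjusted p of 0.05 (0.0068%), the estrogen receptor gene *Esr1*, at 17.1 ± 1.14 CPM in AHRfl mice and 371 ± 173 CPM in AHRmKO mice (log2 fold change 4.44, edgeR adjusted p = 0.00043). The MerCreMer transgene of the AHRmKO mice holds a part of the mouse estrogen receptor, so transcripts of the transgene and of the resident gene cannot be told apart in these counts. In 5 libraries (AHRfl 11, 15 and 33 and AHRmKO 9 and 22) the female-specific transcript *Xist* had 44 to 75 counts, against at most 3 in the other 5, and 4 genes of the Y chromosome had at least 282 counts in every library. Fold changes without those libraries (AHRfl 12 and 13 against AHRmKO 8, 19 and 34) and in those libraries alone are given beside each gene. These fits hold few mice, and their fold changes are given as sizes only. Labels do not state how the animals were assigned to litters or sequencing batches.

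Sequences show how short the pump inhibitors are and which promoter windows carry the core letters bound by the receptor that was deleted. The reading frames of *Sln* and *Pln* were read from GENCODE M21 transcripts of GRCm38, with the start and stop codons in capitals. Sarcolipin is encoded by 31 codons in a single coding exon at chr9:53853473-53853568 (+ strand), and phospholamban by 52 codons in a single coding exon at chr10:53343864-53344022 (+ strand).
Sln: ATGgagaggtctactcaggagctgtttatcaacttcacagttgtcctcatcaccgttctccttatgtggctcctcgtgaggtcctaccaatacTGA
Pln: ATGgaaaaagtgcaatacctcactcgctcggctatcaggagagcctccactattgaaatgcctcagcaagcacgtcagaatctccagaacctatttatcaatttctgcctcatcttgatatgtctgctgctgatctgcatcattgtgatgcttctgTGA
RefSeq promoter windows (GRCm38.p6, 250 bases before to 50 bases after a start site) matched 7 of the 10 genes, with 8 windows in all since *Pvalb* has a pair. The windows of *Atp2a2*, *Sln* and *Jph1* were not matched. The letters GCGTG, the core of the xenobiotic response element that the receptor binds with its partner, were searched on both strands and stood in 3 of these 8 windows (37.5%), beside 32.4% of all 32851 promoter windows of this length. These 3 windows are printed with GCGTG, or CACGC where it lies on the other strand, in capitals. They are at chr1:136052561-136052860 (+ strand) for *Cacna1s*, chr3:102086165-102086464 (+ strand) for *Casq2* and chr15:78204188-78204487 (- strand) for the downstream start of *Pvalb*, and the match begins -39, -146 and -17 bases from the start site.
Cacna1s: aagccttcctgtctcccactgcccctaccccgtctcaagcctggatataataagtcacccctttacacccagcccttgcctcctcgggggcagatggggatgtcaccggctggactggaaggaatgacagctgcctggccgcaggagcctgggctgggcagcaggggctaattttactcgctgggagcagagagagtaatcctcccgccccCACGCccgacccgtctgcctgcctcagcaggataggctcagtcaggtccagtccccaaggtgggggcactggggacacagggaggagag
Casq2: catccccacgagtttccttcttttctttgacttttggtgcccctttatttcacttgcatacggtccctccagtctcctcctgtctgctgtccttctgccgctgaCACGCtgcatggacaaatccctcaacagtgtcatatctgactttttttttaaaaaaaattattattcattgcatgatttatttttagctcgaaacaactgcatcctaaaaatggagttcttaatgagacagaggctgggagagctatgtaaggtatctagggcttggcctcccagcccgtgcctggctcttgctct
Pvalb: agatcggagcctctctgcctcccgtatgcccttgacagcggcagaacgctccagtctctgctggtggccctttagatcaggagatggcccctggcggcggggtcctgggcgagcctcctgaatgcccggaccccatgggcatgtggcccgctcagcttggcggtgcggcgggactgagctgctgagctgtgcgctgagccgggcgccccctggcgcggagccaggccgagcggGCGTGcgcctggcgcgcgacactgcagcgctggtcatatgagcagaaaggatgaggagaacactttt
The E-box letters CANNTG, which read the same on both strands and are bound by the MyoD family, were present in 6 of the 8 windows (75%), beside 72.3% of all windows, and the windows of *Ryr1* and of the upstream start of *Pvalb* had none. No GCGTG match overlapped a CANNTG match. The TATA-box letters TATAAA occurred in 1 of the 8 windows (12.5%), that of *Pln*, beside 13.6% of all windows. A match of letters is a description of these windows and does not show binding.

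The genes of fast fibres had the highest levels per length. Per kb of exon, *Pvalb* (mean 9017 CPM per kb) and *Atp2a1* (8992 CPM per kb) were the highest and could not be ranked, as *Pvalb* exceeded *Atp2a1* in 4 of 10 mice. *Casq1* followed at 1141 CPM per kb, below *Atp2a1* by a ratio of 7.88, and *Ryr1* at 156 CPM per kb, a further 7.30 lower, each in 10 of 10 mice. *Cacna1s* (102 CPM per kb) was below *Ryr1* in 10 of 10 mice and *Jph1* (84.4 CPM per kb) was below *Cacna1s* in 9 of 10. The slow-fibre and cardiac forms and the inhibitors came last, namely *Atp2a2* at 28.2, *Sln* at 6.81, *Casq2* at 6.41 and *Pln* at 2.27 CPM per kb. *Sln* and *Casq2* were not separable, with *Sln* higher in 5 of 10 mice, and *Pln* was below *Casq2* in 9 of 10 with overlapping ranges. By CPM without length, *Atp2a1* ranked 4 of all genes tested, *Pvalb* 16, *Ryr1* 31 and *Casq1* 40, whereas *Sln* ranked 7282 and *Pln* 8258.

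**Figure D1:**
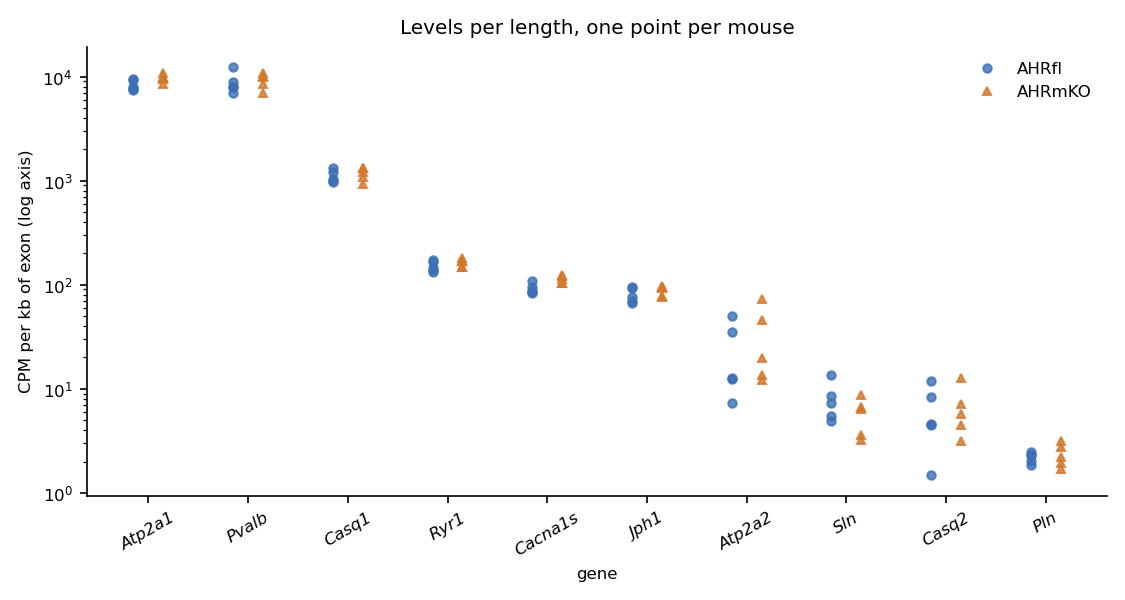
Level of the 10 genes per kb of exon in each mouse, on a log axis, with AHRfl mice as circles and AHRmKO mice as triangles. *Atp2a1* and *Pvalb* have means of 8992 and 9017 CPM per kb, *Casq1* of 1141, and *Pln*, with the lowest mean, ranges from 1.70 to 3.17.

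The comparison of AHRmKO with AHRfl asked whether loss of the receptor in the fibres altered these genes under smoke. None of the 10 genes passed an adjusted p of 0.05 with edgeR (background 0.0068% of genes tested), DESeq2 or limma-voom. At an unadjusted p under 0.05 the count was 1 of 10, *Cacna1s*, beside 6.61% of all genes tested. The genotypes overlapped in all 10 genes, so that 0 of 10 were separated, beside 1.4% of all genes tested. Of the 10 log2 fold changes, 9 were above 0 and 1 below, with a median of 0.10 beside 0.0056 over all genes tested. Several of these genes varied together across mice, as given below, so their directions are not independent. Some of the directions also turned in the alternative fits. The mice numbered 5 in each genotype, and since samples are whole muscles, fewer fibres of a type and less RNA per fibre cannot be told apart.

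**Figure D2:**
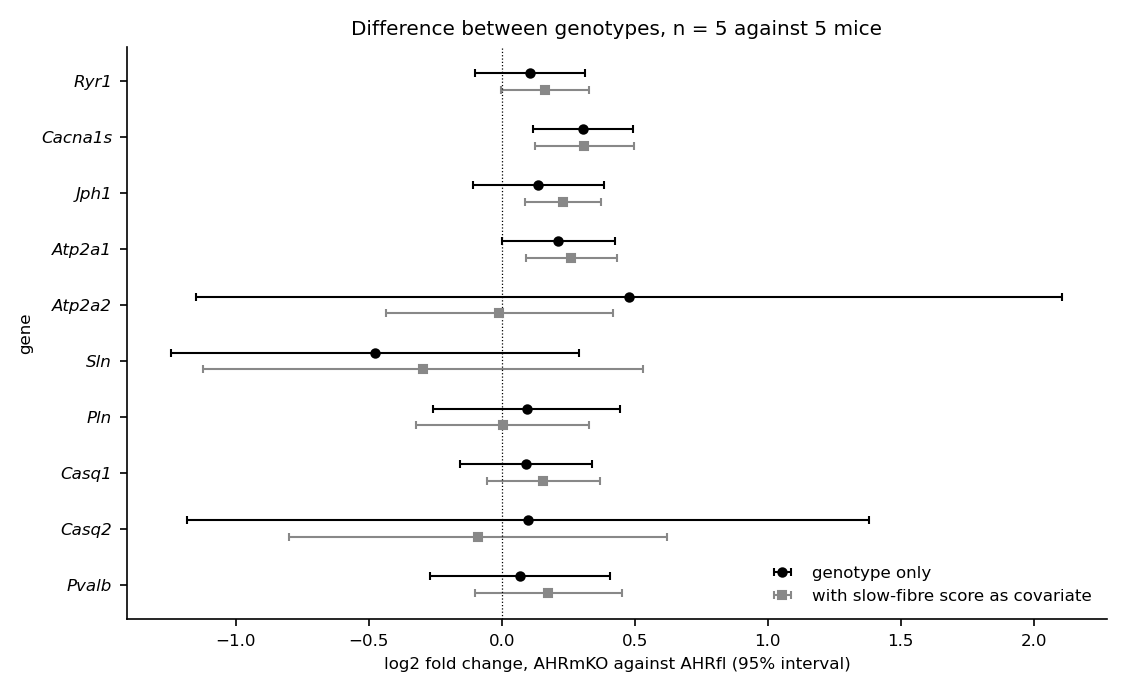
Log2 fold change of each gene in AHRmKO against AHRfl mice with its 95% interval, from edgeR with genotype alone (black circles) and with a covariate for slow-fibre content added (grey squares). Intervals of *Atp2a2*, *Casq2* and *Sln* are the widest with genotype alone, and that of *Atp2a2* narrows from -1.15 to 2.11 to -0.43 to 0.42 with the covariate.

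Among the genes of calcium release, *Cacna1s* (ENSMUSG00000026407, chr1:136052750-136119822, + strand), the voltage sensor of the transverse tubule, had the smallest p of the 10. In AHRfl mice 11, 12, 13, 15 and 33 its level was 559.7, 568.4, 704.1, 625.4 and 540.6 CPM. In AHRmKO mice 8, 9, 19, 22 and 34 it was 804.9, 749.4, 674.1, 678.3 and 795.8 CPM. All 5 AHRmKO mice were above the AHRfl median and 3 were above every AHRfl mouse, while AHRfl 13 reached into the AHRmKO range. The means were 599.7 ± 66.4 and 740.5 ± 62.4 CPM (SD, n = 5 each), a log2 fold change of 0.30 (SE 0.0876, 95% interval 0.12 to 0.49). The two-sided exact permutation p was 0.0238 for this single gene, whose smallest possible value is 0.00794, and the edgeR p was 0.0040 unadjusted and 0.606 after adjustment over all genes. The log2 fold change was 0.25 without the libraries with *Xist* counts and 0.31 in those libraries alone, and its lowest adjusted p in any alternative was 0.172, with DESeq2. Exons of *Cacna1s* share 1309 bases with the gene Gm37759 on the opposite strand, which had at most 196 counts in a library.

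*Ryr1* (ENSMUSG00000030592, chr7:29003344-29125179, - strand), the release channel itself, was at 3141, 3632, 3766, 2898 and 3012 CPM in AHRfl mice 11, 12, 13, 15 and 33. The AHRmKO mice 8, 9, 19, 22 and 34 had 3662, 3678, 3216, 3198 and 3951 CPM. All 5 AHRmKO mice were above the AHRfl median and 1 was above every AHRfl mouse, and the log2 fold change of 0.11 (SE 0.0960, 95% interval -0.10 to 0.31) did not pass the edgeR test (adjusted p = 0.882). For *Jph1* (ENSMUSG00000042686, chr1:16964560-17097889, - strand), the membrane tether of the triad, AHRfl mice had 382.9, 475.1, 465.4, 351.3 and 334.2 CPM in the same order. AHRmKO mice had 392.4, 490.4, 479.7, 377.7 and 469.7 CPM, a log2 fold change of 0.14 (SE 0.114, 95% interval -0.11 to 0.38, edgeR adjusted p = 0.867). Without the libraries with *Xist* counts both genes turned below 0, to -0.03 for *Ryr1* and -0.07 for *Jph1*, and in those libraries alone the values were 0.19 and 0.29.

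**Figure D3:**
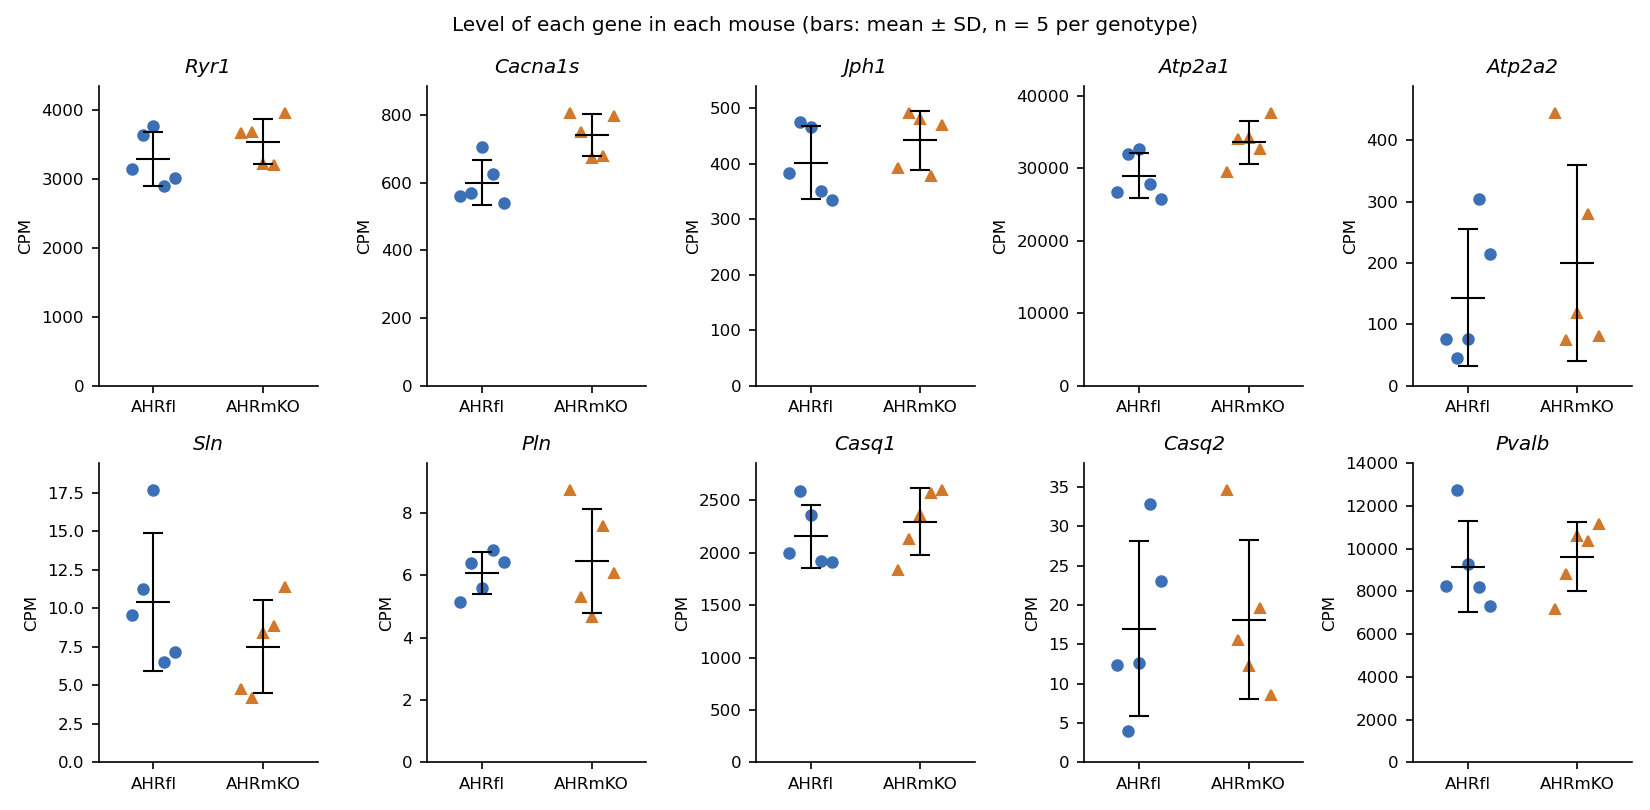
Level of each of the 10 genes in CPM, with a point for each mouse, AHRfl as circles and AHRmKO as triangles, and bars for the mean ± SD (n = 5 per genotype). The genotypes overlap in every panel, and *Atp2a2*, *Casq2* and *Sln* show the widest scatter among mice.

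Of the pumps, *Atp2a1* (ENSMUSG00000030730, chr7:126445858-126463108, - strand), the fast-fibre SERCA, was at 26691, 31962, 32599, 27800 and 25772 CPM in AHRfl mice 11, 12, 13, 15 and 33. AHRmKO mice 8, 9, 19, 22 and 34 had 29487, 34029, 34140, 32585 and 37575 CPM. Every AHRmKO mouse was above the AHRfl median and 3 were above all AHRfl mice. The means of 28965 ± 3119 and 33563 ± 2925 CPM gave a log2 fold change of 0.21 (SE 0.0987, 95% interval -0.00022 to 0.43), with an exact permutation p of 0.0556 and an edgeR adjusted p of 0.755. The log2 fold change was 0.07 without the libraries with *Xist* counts and 0.32 in those libraries alone. Exons of *Atp2a1* share 763 bases, 21.9% of their length, with *Rabep2* on the opposite strand, which had at most 6515 counts beside at least 833762 for *Atp2a1*.

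*Atp2a2* (ENSMUSG00000029467, chr5:122453513-122502225, - strand), the slow-fibre and cardiac SERCA, varied far more between mice than between genotypes. AHRfl mice 11, 12, 13, 15 and 33 had 76.1, 44.7, 77.2, 304.6 and 215.1 CPM, and AHRmKO mice 8, 9, 19, 22 and 34 had 443.9, 74.6, 119.4, 280.0 and 81.9 CPM. High mice (AHRfl 15 and 33, AHRmKO 8 and 22) and low mice occurred in both genotypes, with a ratio of 9.93 between the highest and the lowest. The log2 SD within genotype was 1.14, higher than that of 99.5% of genes tested, and the log2 fold change of 0.48 had a 95% interval of -1.15 to 2.11 (SE 0.712, edgeR adjusted p = 0.939). Without AHRmKO 8 alone the log2 fold change was -0.05, and it was 1.82 without the libraries with *Xist* counts and -0.16 in those libraries alone.

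The pump inhibitors were scarce. *Sln* (ENSMUSG00000042045, chr9:53850164-53854560, + strand), whose reading frame is printed above, was the only gene of the 10 with a lower mean in AHRmKO mice. Its level was 9.55, 11.2, 17.7, 6.52 and 7.17 CPM in AHRfl mice 11, 12, 13, 15 and 33 and 4.75, 4.21, 8.39, 8.86 and 11.4 CPM in AHRmKO mice 8, 9, 19, 22 and 34. The groups overlapped, with 1 AHRmKO mouse above the AHRfl median and none above the AHRfl maximum. The log2 fold change was -0.48 (SE 0.343, 95% interval -1.24 to 0.29), with an exact permutation p of 0.254 and an edgeR adjusted p of 0.844. It remained below 0 in each leave-one-out fit, from -0.67 to -0.20, the smaller size being without AHRfl 13. It was -0.82 without the libraries with *Xist* counts and -0.24 in those libraries alone. *Sln* had 155 to 627 counts in a library.

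*Pln* (ENSMUSG00000038583, chr10:53337667-53345987, + strand), the inhibitor best known from heart and slow fibres, was at 5.15, 6.40, 5.59, 6.81 and 6.43 CPM in AHRfl mice 11, 12, 13, 15 and 33. AHRmKO mice 8, 9, 19, 22 and 34 had 8.75, 5.29, 4.68, 7.57 and 6.07 CPM. The AHRmKO mice spread on both sides of the AHRfl range, and the log2 fold change of 0.09 (SE 0.163, 95% interval -0.26 to 0.44, edgeR adjusted p = 0.952) turned to -0.04 without AHRmKO 8. It was 0.12 without the libraries with *Xist* counts and 0.07 in those libraries alone. Smooth muscle also expresses *Pln*, and the summed level of 6 smooth muscle markers was 147 to 212 CPM in AHRfl mice and 148 to 227 CPM in AHRmKO mice. Of 7 atrial heart markers, only *Myl7* had no counts in any library, and the sum was 8.78 to 12.9 CPM in AHRfl mice and 4.93 to 13.9 CPM in AHRmKO mice. Their part in the level of *Pln* was not tested. Exons of *Pln* share 59.6% of their length with Gm47644 on the opposite strand, a gene with no row in the count table, and the study's methods make strand-specific counting conditional on a stranded library without saying whether these libraries were stranded.

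The calcium buffers followed the same division. *Casq1* (ENSMUSG00000007122, chr1:172209894-172219868, - strand), the calsequestrin of fast fibres, was at 2002, 2585, 2359, 1920 and 1913 CPM in AHRfl mice 11, 12, 13, 15 and 33 and at 1831, 2128, 2357, 2566 and 2601 CPM in AHRmKO mice 8, 9, 19, 22 and 34. These ranges were nearly the same, and the log2 fold change was 0.09 (SE 0.116, 95% interval -0.16 to 0.34, edgeR adjusted p = 0.923). *Pvalb* (ENSMUSG00000005716, chr15:78191114-78206400, - strand), the cytosolic buffer of fast fibres, was at 8267, 12752, 9274, 8209 and 7310 CPM in AHRfl mice. In AHRmKO mice it was at 7163, 8823, 10587, 10340 and 11144 CPM. The highest mouse was AHRfl 12 and the lowest AHRmKO 8, and the log2 fold change was 0.07 (SE 0.156, 95% interval -0.27 to 0.41, edgeR adjusted p = 0.963). It was -0.0023 without AHRfl 33. Without the libraries with *Xist* counts the values were -0.13 for *Casq1* and -0.19 for *Pvalb*, and in those libraries alone they were 0.27 for both.

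*Casq2* (ENSMUSG00000027861, chr3:102086415-102146514, + strand), the calsequestrin of slow fibres and heart, was at 12.4, 4.04, 12.6, 32.8 and 23.0 CPM in AHRfl mice 11, 12, 13, 15 and 33. The values of AHRmKO mice 8, 9, 19, 22 and 34 were 34.6, 15.6, 12.2, 19.7 and 8.52 CPM. As for *Atp2a2*, the highest mice were AHRfl 15 and AHRmKO 8, and the ratio of highest to lowest was 8.57. The log2 SD within genotype was 0.97, higher than that of 98.8% of genes tested, and the log2 fold change of 0.10 had a 95% interval of -1.19 to 1.38 (SE 0.562, edgeR adjusted p = 0.989). It was -0.28 without AHRmKO 8 and -0.16 without AHRfl 12, 1.15 without the libraries with *Xist* counts and -0.37 in those libraries alone.

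The 10 genes together took 4.19, 4.94, 4.79, 4.32 and 4.17% of library counts in AHRfl mice 11, 12, 13, 15 and 33. In AHRmKO mice 8, 9, 19, 22 and 34 they took 4.56, 5.01, 5.00, 5.02 and 5.41%. *Atp2a1* alone made up 61.4 to 68.1% of these counts, and *Atp2a1* with *Pvalb* 83.6 to 86.7%, so the sum speaks mainly for those genes. The mean share was 4.48 ± 0.359% and 5.00 ± 0.301%, a difference of 0.516 percentage points (two-sided exact permutation p = 0.0476). The p rose to at most 0.103 on leaving out single mice and was past 0.05 in 7 of the 10 cases (without AHRfl 11, 15 or 33, or AHRmKO 9, 19, 22 or 34). The exact permutation p of the share on a log2 scale was also 0.0476. After TMM normalisation the summed level was 44751 ± 5590 CPM in AHRfl mice and 50427 ± 4578 CPM in AHRmKO mice (SD, n = 5 each, exact permutation p = 0.103).

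Ratios between partner genes, per kb of exon, gave the balance of forms in each mouse. *Atp2a2* relative to *Atp2a1* was 0.163, 0.0800, 0.135, 0.626 and 0.477% in AHRfl mice and 0.861, 0.125, 0.200, 0.491 and 0.125% in AHRmKO mice, in the order given before. The share of the slow form stayed below 1% in every mouse and was highest in AHRmKO 8. *Casq2* relative to *Casq1* ran from 0.111 to 1.22% in AHRfl mice and from 0.234 to 1.35% in AHRmKO mice. Neither ratio differed beyond its spread, with log2 differences of 0.26 and 0.15 (exact permutation p = 0.698 and 0.841), and both turned below 0 without AHRfl 12 (-0.10 and -0.36) or AHRmKO 8 (-0.16 and -0.20). *Sln* relative to *Atp2a1* was 0.0944, 0.0926, 0.143, 0.0619 and 0.0734% in AHRfl mice and 0.0425, 0.0326, 0.0648, 0.0717 and 0.0798% in AHRmKO mice. No AHRmKO value was above the AHRfl median, and the log2 difference was -0.69 (exact permutation p = 0.0635, 0.254 after adjustment over the 4 ratios). On leaving out single mice the unadjusted exact permutation p ran from 0.0397 (without AHRfl 15) to 0.135 (without AHRmKO 9), and it was under 0.05 in 2 of 10 cases, the other being without AHRmKO 34 (0.0476). *Pln* relative to *Atp2a2* ran from 4.93 to 31.6% and from 4.34 to 16.3%, with a log2 difference of -0.42 (exact permutation p = 0.484).

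The spread of *Atp2a2* and *Casq2* was next set beside the slow-fibre content of each mouse. A slow-fibre score was the mean log2 CPM of *Myh7*, *Tnni1*, *Tnnt1*, *Tnnc1*, *Myl2* and *Myl3*, which encode slow contractile proteins and include none of the 10 genes. The summed level of these markers was 149, 21.1, 141, 1449 and 899 CPM in AHRfl mice 11, 12, 13, 15 and 33 and 1667, 151, 391, 1189 and 180 CPM in AHRmKO mice 8, 9, 19, 22 and 34. Mice with high and low values occurred in both genotypes (exact permutation p = 0.413). Without the libraries with *Xist* counts, however, AHRfl 12 and 13 were both below AHRmKO 8, 19 and 34. The fold changes of that fit therefore also compare mice of unlike slow-fibre level, and the part of either in them was not tested. Over the same mice, 7 fast-fibre markers summed to 96724 to 145820 CPM in AHRfl mice and 108780 to 137580 CPM in AHRmKO mice.

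*Atp2a2* rose with the score over the 10 mice, with r = 0.97 and rho = 0.99 (permutation p = 1e-05, the smallest that 100000 permutations can give, and 2e-05; adjusted over all genes 0.0210). Positive relations passed this threshold in 0.245% of genes tested and negative ones in 0.116%, and *Atp2a2* was the only one of the 10 genes to pass. The genes tested include the 6 markers that make up the score, whose relation to it is partly set by construction. These markers enter both the adjustment and the share of positive relations, and neither was computed without them. The relation was 0.97 both on dropping AHRfl 12 and AHRmKO 8, whose scores were farthest from the median, and with values centred within genotype. Its slope was 0.49 in log2 CPM per unit of score. *Casq2* had r = 0.87 and rho = 0.76 (permutation p = 0.00082 and 0.0145, adjusted p = 0.0663), 0.73 without those mice and 0.87 centred within genotype. The adjustment over the 10 genes that was first planned was not applied, and whether *Casq2* passes depends on that choice. All values of 10 mice come from the same libraries as the score, and fibre content was not measured in any other way.

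**Figure D4:**
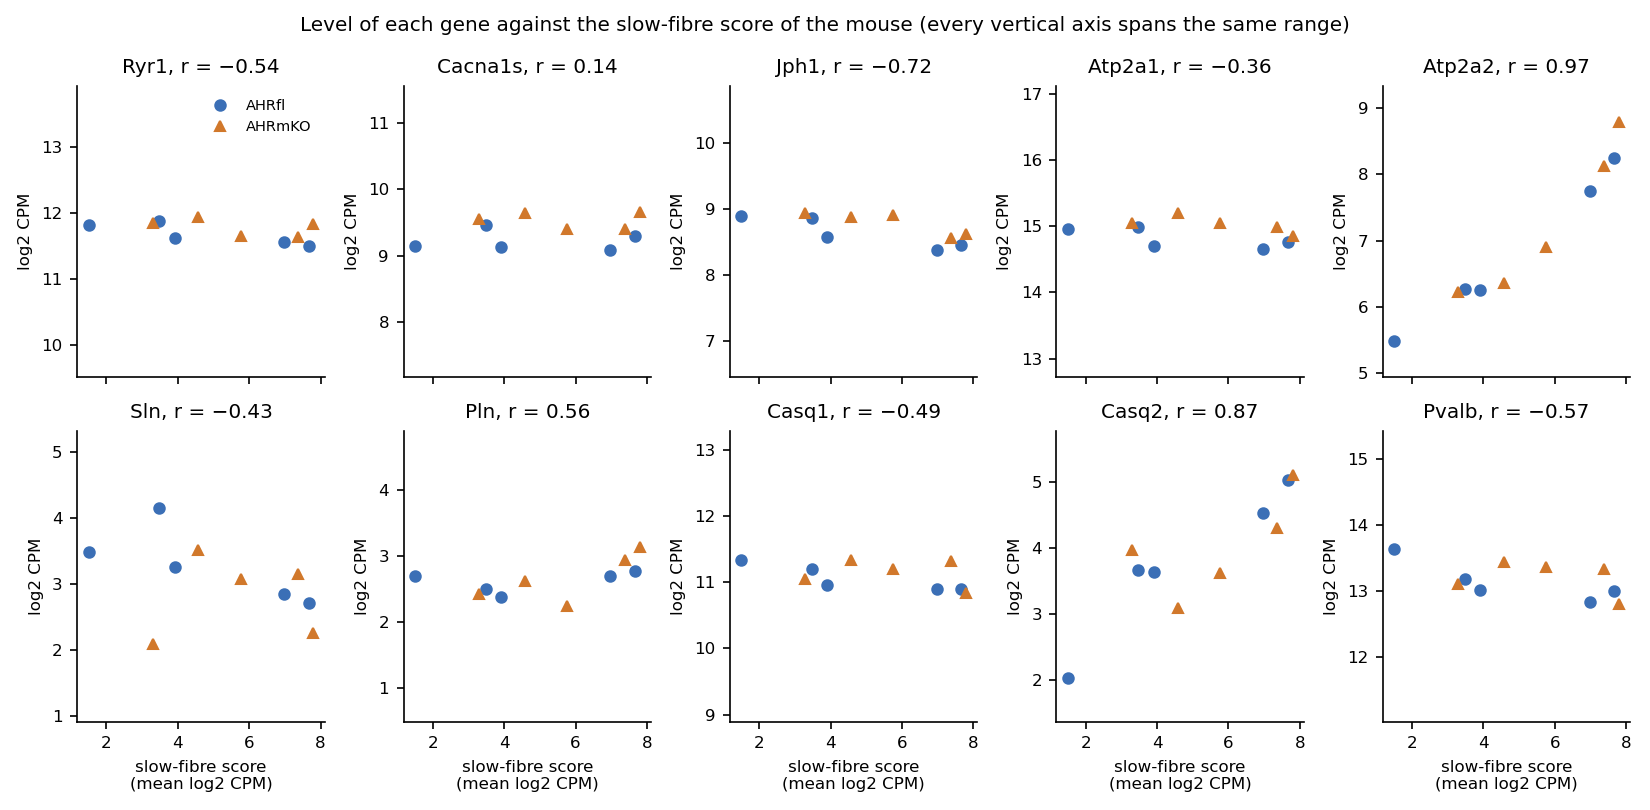
Log2 CPM of each gene against the slow-fibre score of the mouse, with AHRfl mice as circles, AHRmKO mice as triangles, and every vertical axis spanning the same number of log2 units. *Atp2a2* (r = 0.97) climbs most steeply, followed by *Casq2* (r = 0.87), and the points of *Jph1* (r = -0.72) lie within a small range.

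*Jph1* had r = -0.72 (rho = -0.64, permutation p = 0.0219 and 0.0552, adjusted p = 0.183), -0.72 without the farthest mice and -0.90 centred within genotype. Of the other genes with a negative r, *Pvalb* had r = -0.57, *Ryr1* -0.54, *Casq1* -0.49 and *Atp2a1* -0.36, with permutation p from 0.0824 to 0.297 and adjusted p from 0.319 to 0.573. Their rho values were -0.59, -0.44, -0.55 and -0.32 (permutation p = 0.0814, 0.206, 0.106 and 0.370). Without the farthest mice, r was -0.14 for *Pvalb*, -0.17 for *Casq1*, -0.37 for *Atp2a1* and -0.75 for *Ryr1*, so the values of *Pvalb* and *Casq1* rested on those mice. Centred within genotype, r was -0.64 for *Pvalb*, -0.71 for *Ryr1*, -0.59 for *Casq1* and -0.72 for *Atp2a1* (permutation p = 0.0458, 0.0278, 0.0761 and 0.0248, not adjusted). *Sln* had r = -0.43 and rho = -0.44 (permutation p = 0.209 and 0.204, r = -0.22 without the farthest mice). *Pln* had r = 0.56 and rho = 0.65 (permutation p = 0.0937 and 0.0484, r = 0.69 without them), and *Cacna1s* had r = 0.14 and rho = 0.14 (permutation p = 0.698 and 0.708, r = -0.40 without them). The adjusted p for these 3 genes was 0.485, 0.338 and 0.857, and the 10 relations were computed as a family with adjustment over all genes tested.

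With the score as a covariate in edgeR, none of the 10 genes passed the adjusted threshold. The log2 fold change of *Atp2a2* became -0.0090 (95% interval -0.43 to 0.42) and that of *Casq2* -0.09 (95% interval -0.80 to 0.62). For *Cacna1s* it was 0.31 (edgeR adjusted p = 0.446), for *Jph1* 0.23 (edgeR adjusted p = 0.446) and for *Atp2a1* 0.26 (edgeR adjusted p = 0.447), and the unadjusted p-values of these 3 genes were 0.0030, 0.0040 and 0.0055 in the same edgeR fit. An unadjusted p under 0.05 was thus found for 3 of the 10 genes, beside 7.7% of all genes tested in that fit. The fit of *Jph1* had an SE of 0.0668 with the score and 0.114 without it.

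**Figure D5:**
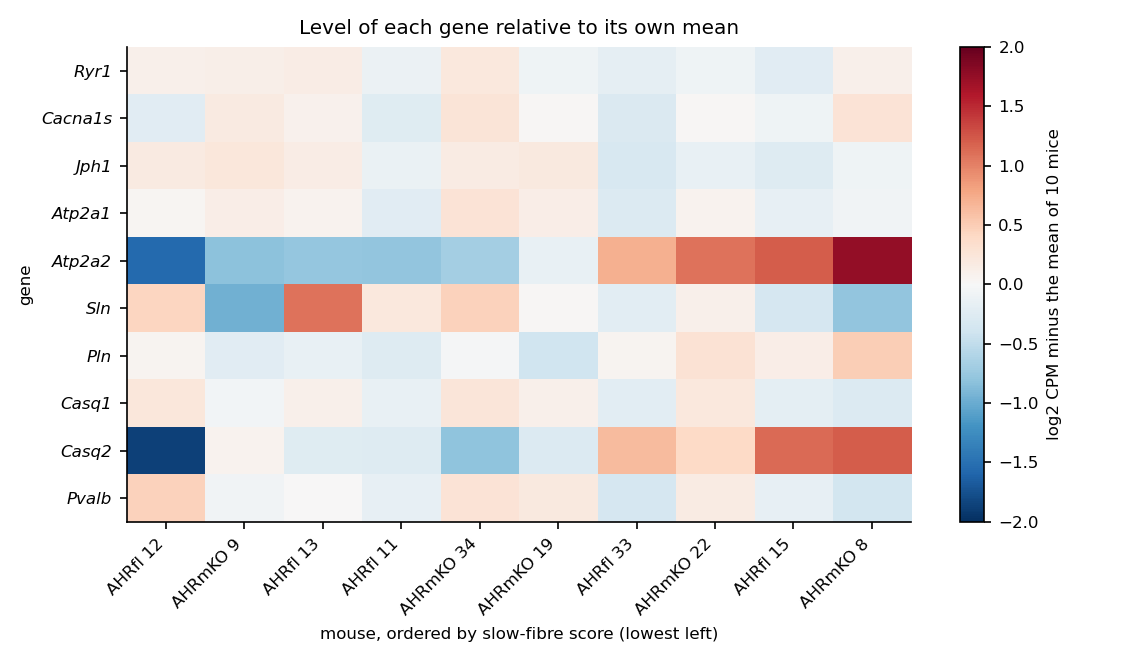
Log2 CPM of each gene minus its mean over the 10 mice, with mice ordered from the lowest slow-fibre score (AHRfl 12) to the highest (AHRmKO 8). The rows of *Atp2a2* and *Casq2* pass from low to high, *Sln* is highest in AHRfl 13 and lowest in AHRmKO 9, and the other rows stay within a narrow range.

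Genes with the pattern most like each of the 10 were sought on log2 CPM centred within genotype over the 10 mice, and r is given as a description with no test. Picking the highest r among all genes tested over 10 mice favours large values, and no background for such maxima is given. *Atp2a2* was nearest to *Ndst2* (0.98), *Zfp385b* (0.98) and the slow troponin gene *Tnnt1* (0.97), itself a part of the slow-fibre score. *Casq2* was nearest to *Nnt*, *Coro6* and *Homer2* (0.99 for each). *Pvalb* was nearest to the muscle creatine kinase gene *Ckm*, to *Sar1b* and to the tropomyosin gene *Tpm1* (0.99 for each). The first of the 3 nearest genes was *Hif1an* for *Ryr1* (0.97), *Ralgapb* for *Cacna1s* (0.96), *Naa15* for *Jph1* (0.95), *Lrrfip1* for *Atp2a1* (0.99), *Thumpd1* for *Sln* (0.93), *Vasn* for *Pln* (0.96) and *Coq10b* for *Casq1* (0.97). The next nearest were *Kif1c* and *Tbc1d16* for *Ryr1*, *Eea1* for *Cacna1s*, *Fxr1* and *Ubr1* for *Jph1*, *Parp1* and *Hdac2* for *Atp2a1*, *Thoc7* and *Exosc2* for *Sln*, *Mxi1* and Gm9889 for *Pln*, and *Ubald1* and *Psap* for *Casq1*. Among the 10 genes themselves, the same measure was 0.94 between *Casq1* and *Pvalb* and 0.89 between *Atp2a2* and *Casq2*. It was 0.84 between *Atp2a1* and *Jph1* and between *Atp2a1* and *Casq1*. Values of 0.82 were found between *Sln* and *Casq1* and between *Atp2a1* and *Pvalb*. Negative values were -0.88 between *Atp2a2* and *Jph1* and between *Casq2* and *Pvalb*, and -0.81 between *Casq1* and *Casq2*. All other pairs were smaller in size.

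A wider list of 64 other calcium handling genes gave the setting. Of these, 63 were matched to a gene of the table, 61 were tested and 0 passed with edgeR, DESeq2 or limma-voom, with 34 log2 fold changes above 0 and 27 below and a median of 0.02 beside 0.0056 over all genes tested. At an unadjusted p under 0.05 the count was 1 of 61, beside 6.61% of all genes tested. This gene was *Nfatc1*, a calcineurin-controlled transcription factor, with a log2 fold change of -0.27 (edgeR adjusted p = 0.718). The next smallest p among genes with lower means in AHRmKO mice belonged to *Asph*, the gene of junctin and aspartyl hydroxylase (-0.22, adjusted p = 0.756), and *Orai1*, the store-operated channel (-0.27, adjusted p = 0.772). Those with higher means were *Homer1*, a scaffold protein of the triad (0.18, adjusted p = 0.792), *Camk2a*, a calmodulin-dependent kinase (0.20, adjusted p = 0.792), and *Speg*, a kinase of the triad (0.14, adjusted p = 0.792). By role, the medians were 0.08 over 20 triad and release genes, 0.01 over 8 genes of the reticulum lumen and membrane, 0.11 over 8 pumps and regulators, 0.0043 over 6 store-entry genes and -0.02 over 19 cytosolic sensors.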

How the data were processed

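Total RNA of gastrocnemius was sequenced after poly(A) selection as paired-end reads. Per the submitters' notes and methods, the authors used Trimmomatic 0.36 for trimming, STAR 2.5.2b for alignment to GRCm38 and featureCounts for exonic reads, and they deposited raw counts per gene, with a column for each mouse and no normalisation. The annotation release is not given in the sources used here, and strand is said to be used only for stranded libraries, without stating whether these were. Names, positions and exon lengths were taken from GENCODE M21, which holds 49056 of the 49315 identifiers.

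Genotypes were compared in R 4.3.3 with edgeR 4.0.16 (filterByExpr with minimum count 10 and minimum total count 15, TMM, robust quasi-likelihood test, Benjamini-Hochberg adjustment over 14714 genes), tested on simulated data. Log2 CPM used a prior count of 2. Single values were compared by two-sided exact permutation over 252 assignments, and relations to the slow-fibre score by 100000 permutations of Pearson's r and Spearman's rho (SciPy 1.17.1, NumPy 2.4.6). Adjustment of those relations was planned over the 10 genes and made over all genes.

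Alternatives were DESeq2 1.42.0, limma-voom (limma 3.58.1), other normalisations and filters, no robust estimation, covariates (slow-fibre score, *Xist* counts, 1 surrogate variable from sva 3.50.0) and leaving out each mouse. Fits with or without the libraries holding *Xist* counts were added after seeing the data. The 10 genes and all gene lists were chosen with earlier results of these data known. Named genes were the 10, *Ahr*, the 3 genes most like each (1 of them is not reported here), and in the wider list the 3 with the smallest p in each direction. Outside this rule, the slow-fibre markers are named as the parts of the score, and *Esr1*, *Xist*, *Myl7* and the genes overlapping exons of the 10 were named after their values were seen. A floor of 3 counts corresponded to 0.079 to 0.0987 CPM and covers counting error only. Labels name individual mice as replicates, and no litters.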

Additional observations from a re-analysis of the deposited data

How the results depend on the processing

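The counts of 0 of 10 genes and 0 of 61 wider-list genes past the adjusted threshold held in all 14 alternatives and in all 10 fits without a single mouse. Over all genes the count of 1 became 21 with DESeq2, 5 without a filter beyond 1 count, 2 with the slow-fibre score as covariate and 6 in the libraries with *Xist* counts alone, and it ran from 1 to 6 on leaving out single mice, with 6 without AHRmKO 34. The cause was not tested. Without the libraries with *Xist* counts, log2 fold changes turned to -0.033 (*Ryr1*), -0.071 (*Jph1*), -0.13 (*Casq1*) and -0.19 (*Pvalb*), and in those libraries alone to -0.16 (*Atp2a2*) and -0.37 (*Casq2*). The slow-fibre covariate gave -0.0090 (*Atp2a2*) and -0.089 (*Casq2*), and 1 surrogate variable gave -0.16 (*Casq2*). *Cacna1s*, *Atp2a1*, *Pln* and *Sln* kept their direction in the 14 alternatives, at 0.25 to 0.31, 0.07 to 0.32, 0.0031 to 0.12 and -0.82 to -0.24.

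On leaving out single mice, log2 fold changes ran from 0.06 to 0.16 (*Ryr1*), 0.27 to 0.37 (*Cacna1s*), 0.08 to 0.20 (*Jph1*), 0.17 to 0.26 (*Atp2a1*), -0.046 to 0.95 (*Atp2a2*), -0.67 to -0.20 (*Sln*), -0.040 to 0.19 (*Pln*), 0.04 to 0.17 (*Casq1*), -0.28 to 0.48 (*Casq2*) and -0.0023 to 0.22 (*Pvalb*). Log2 differences of the ratios ran from -0.16 to 0.64 (*Atp2a2* to *Atp2a1*), -0.36 to 0.51 (*Casq2* to *Casq1*), -0.83 to -0.50 (*Sln* to *Atp2a1*) and -0.74 to -0.07 (*Pln* to *Atp2a2*), and the difference in the summed share from 0.414 to 0.631 percentage points. After TMM normalisation, chosen after seeing the data, the summed level differed by 5676 CPM (exact permutation p = 0.103), or 0.18 on the log2 scale (exact permutation p = 0.0952). The r with the slow-fibre score ran from -0.73 to -0.43 (*Ryr1*), -0.12 to 0.33 (*Cacna1s*), -0.80 to -0.67 (*Jph1*), -0.52 to -0.26 (*Atp2a1*), 0.96 to 0.98 (*Atp2a2*), -0.77 to -0.30 (*Sln*), 0.42 to 0.75 (*Pln*), -0.72 to -0.34 (*Casq1*), 0.79 to 0.92 (*Casq2*) and -0.70 to -0.33 (*Pvalb*). Centred within genotype, the unadjusted permutation p fell under 0.05 for *Ryr1* (r = -0.71), *Atp2a1* (-0.72) and *Pvalb* (-0.64), and *Cacna1s* turned to -0.10.

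No paired analysis was possible because the mouse numbers do not repeat between the genotypes. With 5 mice per genotype, 95% intervals reached 1.63 log2 units on either side for *Atp2a2*, 1.28 for *Casq2* and 0.77 for *Sln*, against 0.19 to 0.35 for the other genes. These widths are from the edgeR fit with genotype alone and are not adjusted for the number of genes. They therefore do not set the smallest change that the adjusted test could find. The log2 fold change of *Cacna1s*, 0.30, was beyond its width of 0.19 and did not pass (edgeR adjusted p = 0.606). *Sln*, *Pln* and *Casq2* had at least 155, 164 and 140 counts in a library. How much of their intervals came from counting and how much from spread among mice was not tested.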

Other observations

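In 20 groups of 5 values (the 10 genes in each genotype), no mouse stood apart from the others by Dixon's 95% limit of 0.71, where chance gives about 1 in 20.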
